A study of Mus musculus with 6 samples.

Results

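The 46 genes described here encode parts of the primary cilium and of intraflagellar transport (IFT), the traffic of protein trains that builds it. They were taken by symbol from a list of IFT, BBSome, transition zone and cilium-linked Hedgehog genes, without a cut on their measured values. Earlier results of these data were known when the list was chosen. All 46 were found among the 27179 gene identifiers of the deposited count table, and all 46 were among the 14199 genes that passed the filter on low counts. The table holds poly(A)-selected RNA-seq counts from ES-E14TG2a, an established mouse embryonic stem cell line, grown in 2i + Lif medium, which contains the kinase inhibitors CHIR99021 and PD0325901. In both groups Trim71, an RNA-binding protein of embryonic stem cells, carried a FLAG epitope tag. The R783H group, 3 libraries lettered A, B and C, carried FLAG-Trim71 with the R783H amino-acid change, and the WT group, also 3 libraries lettered A, B and C, carried FLAG-Trim71 without it. The series title links this change to hydrocephalus, an enlargement of the fluid-filled spaces of the brain. The labels leave unsaid whether A, B and C are separate clones, cultures or preparations, so p-values measure the spread between these libraries, which may be technical.

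A primary cilium is a single, non-motile antenna of microtubules that grows from the mother centriole of a resting cell. IFT-B trains driven by kinesin-2 carry cargo towards the tip, IFT-A trains driven by dynein-2 return it, and the BBSome, a coat recruited by the GTPase Arl6, moves membrane proteins out of the cilium. A gate at the base, the transition zone, decides which proteins enter, and vertebrate Hedgehog signalling runs through the organelle: Smo accumulates in it, and the Gli factors are processed there. Mutations in many of these genes cause ciliopathies, among them Bardet-Biedl, Joubert and Meckel syndromes.

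Total counts ran from 20894277 to 29079670 per library, and all R783H libraries were deeper than all WT libraries. Trim71 itself, on chr9:114511268-114564369, stood at 152, 129 and 150.5 CPM across R783H A to C and at 131, 131 and 159 CPM across WT A to C. The ranges of the groups overlapped, with a log2 fold change (R783H over WT) of 0.03 (SE 0.08, edgeR adjusted p 0.743). With an offset for transcript length and GC content the value for Trim71 turned to -0.28 (edgeR adjusted p 0.00152), and gene counts cannot show the amino-acid change. CPM values are counts divided by the library total after TMM scaling, which makes libraries of unequal depth comparable. Summed over 8 markers of embryonic stem cells, such as Pou5f1 and Nanog, levels were 6790 to 6924 CPM in R783H and 6957 to 7041 CPM in WT. The markers of 4 other cell kinds summed to far less, and none of these 5 sums overlapped between the groups: 83.9 to 91.4 CPM in R783H and 117 to 122 CPM in WT for 6 neural markers, 34.6 to 39.9 against 59.7 to 63.6 CPM for 4 mesoderm markers, and 7.51 to 8.48 against 3.10 to 4.95 CPM for 4 endoderm markers. For 8 fibroblast markers the sums were 12.8 to 13.2 CPM in R783H and 11.6 to 12.7 CPM in WT. The sums rest on the most abundant markers: of 5 neural markers tested, 2 rose and 2 fell, and of 8 stem cell markers 2 rose and 3 fell. For mesoderm 3 of 3 fell, for endoderm 2 of 3 rose, and for fibroblasts 1 of 5 rose and 1 fell. Over all tested genes 33.5% rose and 30.9% fell. Every R783H library lay above every WT library in 35% of all tested genes and below in 33.1%, so separate groups were common. No marker list held a gene without a count in all libraries. The part of these marker differences in the results for cilium genes was not tested, and in bulk RNA a change in the share of cells that express a gene and a change in RNA per cell cannot be told apart. R783H B stood apart within its group, with a chi-square per degree of freedom of 10.6 and 11.6 against R783H A and C, which differed from each other by 2.12.

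Most of the 46 cilium genes differed little between the groups, and more of the called genes were higher than lower in R783H. A gene was called where the adjusted p of edgeR's quasi-likelihood test, adjusted over all 14199 genes, was under 0.05. By this rule 19 of the 46 genes rose in R783H (41.3%), where 33.5% of all tested genes did, and 7 fell (15.2%), where 30.9% of all tested genes did. The share that rose lay near that background, and the share that fell lay below its own. The median log2 fold change was 0.14 over the 46 genes and 0.03 over all tested genes, and 36 of 46 values were above 0 (78.3%, against 52.5% of all tested genes). Changes were small: among the 26 called genes the absolute log2 fold change had a median of 0.44 and ran from 0.19 to 1.11. Rises of at least 1.5-fold were called for 7 of the 46 genes, against 15.1% of all tested genes, and falls of that size for 1, against 9.54%. A rise of at least 2-fold was called for 1 gene, Kif17, against 5.91% of all tested genes. In 18 of the 46 genes every R783H library lay above every WT library, against 35% of all tested genes. In 6 of the 46 every R783H library lay below, against 33.1% of all tested genes, so that this share was under the background. Both shares of non-overlapping genes were read against that background and no set test was made.

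**Figure D1:**
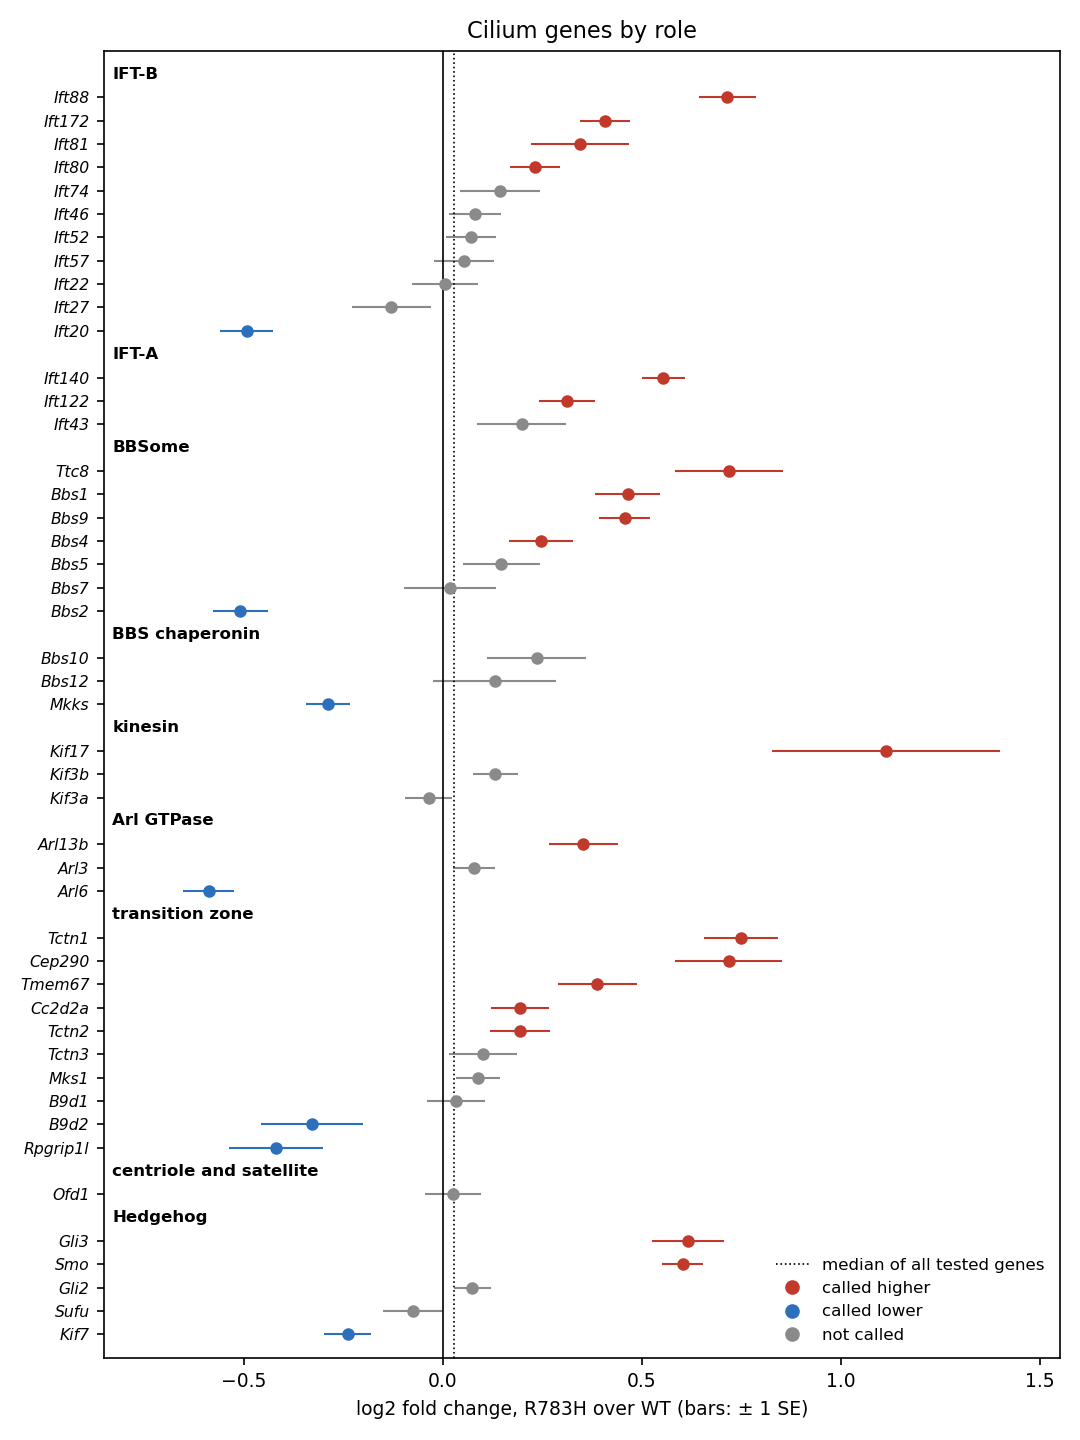
The log2 fold change of R783H over WT for each of the 46 genes, ordered by role, with bars of ± 1 SE from the edgeR fit over 3 libraries a group. Red points are called higher (19), blue points called lower (7) and grey points not called (20), and the dotted line is the median of all tested genes, 0.03. The highest point is Kif17 at 1.11 and the lowest is Arl6 at -0.59.

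Levels per kilobase of the longest transcript, which allow genes to be set side by side, spanned a wide range in WT cells. B9d1 was highest, at 40.5 CPM per kb, followed by Arl3 at 33.9 and Ift20 at 26.5 CPM per kb. Kif17 was lowest, at 0.172 CPM per kb, below Tctn1 at 1.06 CPM per kb. The 46 genes together took 1003 to 1017 CPM in the WT libraries and 1100 to 1110 CPM in the R783H libraries.

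Ciliary genes are classic targets of the RFX transcription factors, which bind the X-box, a paired motif with a core of GTTGCC, so the promoters were searched for this core on both strands. RefSeq promoter windows (GRCm38.p6, 250 bases before to 50 after the start) existed for 42 of the 46 genes. There was no entry for Ift80, Ift81, Ift122 and Tmem67. The core was found in 17 of the 42 genes (40.5%), against 14.9% of the 10766 tested genes with a window. Per window, 38.6% of 44 windows of the cilium genes held it, against 12.5% of all windows of this length in the table. It was found in 8 of 15 genes that rose, 1 of 7 that fell and 8 of 20 not called. A longer form, GTTNCCATG, which overlaps the core where N is G, was found in 1 of the 42 genes, Tctn2, and in 1.73% of tested genes. The letters were chosen after the count data had been seen, no test was made, and a match is a description of the letters, not a site. The following stretches show the core, or in Tctn2 the longer form, with its surroundings in genes taken up below, 5′ to 3′ in the direction of the gene, with the matches in capitals; those of Ift88, Tctn1 and B9d2 lie after the start, the others before it.

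Ift88 (chr14:57424078-57424107, plus strand): ttggagtcgcgcctGGCAACggctgggcgt
Ift140 (chr17:25015936-25016025, plus strand): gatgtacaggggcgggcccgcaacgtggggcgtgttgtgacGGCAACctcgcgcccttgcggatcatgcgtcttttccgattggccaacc
Ift57 (chr16:49699184-49699273, plus strand): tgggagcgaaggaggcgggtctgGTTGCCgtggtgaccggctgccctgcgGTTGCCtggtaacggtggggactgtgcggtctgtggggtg
Kif17 (chr4:138262141-138262230, plus strand): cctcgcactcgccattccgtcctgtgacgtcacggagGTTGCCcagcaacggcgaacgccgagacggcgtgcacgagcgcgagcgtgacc
Tctn1 (chr5:122264411-122264440, minus strand): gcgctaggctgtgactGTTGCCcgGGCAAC
Tctn2 (chr5:124598659-124598748, plus strand): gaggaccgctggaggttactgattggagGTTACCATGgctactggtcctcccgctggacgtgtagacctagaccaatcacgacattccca
B9d2 (chr7:25680782-25680811, plus strand): gggaggaacctgctGTTGCCccagcaacag

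In Tctn1 the core faces its reverse complement across 2 bases, and Ift57 holds it more than once in the stretch shown. In Ift88 and Ift140 the capitals GGCAAC are the core read on the opposite strand. In Tctn2 the capitals mark the longer form, and its core begins 13 bases after the start, outside the stretch shown. B9d2 is the 1 gene of those that fell whose window held the core.

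Of the 11 IFT-B genes, 4 rose, 1 fell and 6 were not called, with a median log2 fold change of 0.08. Ift88 (chr14:57424064-57517936) encodes a core subunit whose loss gives the polycystic kidney mouse its short cilia. It stood at 17.6, 17.6 and 18.3 CPM across R783H A to C and at 10.9, 10.4 and 11.3 CPM across WT A to C. All R783H libraries were above all WT libraries, and Ift88 rose 1.64-fold, by a log2 fold change of 0.72 (SE 0.07, edgeR adjusted p 6.29e-06). Ift20 (chr11:78536361-78541732) encodes the small subunit that also sits at the Golgi and sorts membrane cargo, and its level per kilobase was the highest of the IFT-B genes. It was found at 21.8, 23.8 and 20.4 CPM across R783H A to C and at 30.7, 31.4 and 30.7 CPM across WT A to C. Here the groups separated the other way, and Ift20 fell 1.41-fold, with a log2 fold change of -0.49 (SE 0.07, edgeR adjusted p 6.58e-05).

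Ift172, a large subunit at the outer edge of the train, averaged 46.3 ± 3.29 CPM over the R783H libraries and 34.9 ± 1.22 CPM over the WT libraries (SD, n = 3) and rose by a log2 fold change of 0.41 (SE 0.06, edgeR adjusted p 1.77e-04). Ift80, also an outer subunit, averaged 37.2 ± 1.53 CPM over the R783H libraries and 31.7 ± 2.05 CPM over the WT libraries (SD, n = 3), with a log2 fold change of 0.23 (SE 0.06, edgeR adjusted p 0.00757). The Ift80 call was lost with the length and GC offset, where its value was -0.06 (edgeR adjusted p 0.317). Ift81 and Ift74 together bind tubulin. Ift81 stood at 8.38, 7.58 and 9.72 CPM across R783H A to C and at 7.62, 6.03 and 6.66 CPM across WT A to C, so that the ranges overlapped, and the log2 fold change was 0.34 (SE 0.12, edgeR adjusted p 0.0273). The Ift81 call was lost without R783H A, R783H C, WT B or WT C, at edgeR adjusted p values of 0.0506, 0.123, 0.126 and 0.0686, and also with DESeq2.

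The other IFT-B genes were not called. Ift74 was at 32.7, 24.1 and 30.9 CPM across R783H A to C and at 25.3, 26.1 and 27.9 CPM across WT A to C, with R783H B below every WT library, and its log2 fold change was 0.14 (SE 0.10, edgeR adjusted p 0.231). Without R783H B it was 0.24 (edgeR adjusted p 0.002303). The small GTPase-like subunits Ift22 and Ift27 had log2 fold changes of 0.0067 and -0.13, and without R783H B the value of Ift27 was -0.25 (edgeR adjusted p 0.0266). The core subunits Ift46 and Ift52 and the outer subunit Ift57 had log2 fold changes of 0.08, 0.07 and 0.05. Ift57, whose promoter stretch holds the core more than once, was among the genes with the smallest differences.

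Of the 3 IFT-A genes, 2 rose and 1 was not called. Ift140 (chr17:25016083-25099499), a core subunit of the return train, rose 1.47-fold: it stood at 42.9, 44.4 and 42.5 CPM across R783H A to C and at 30.4, 28.5 and 29.5 CPM across WT A to C. No library of one group reached the other, and the log2 fold change was 0.55 (SE 0.05, edgeR adjusted p 5.55e-06). The length and GC offset brought it to 0.32. Ift122, another core subunit, averaged 20.2 ± 0.161 CPM over the R783H libraries and 16.2 ± 1.16 CPM over the WT libraries (SD, n = 3) and rose by a log2 fold change of 0.31 (SE 0.07, edgeR adjusted p 0.00245). Ift43, the smallest subunit and the highest of the IFT-A genes per kilobase, stood at 6.32, 6.34 and 5.64 CPM across R783H A to C and at 4.901, 5.14 and 5.91 CPM across WT A to C. WT C lay above R783H C, and the log2 fold change of 0.20 (SE 0.11, edgeR adjusted p 0.13998) was not called. With the offset the value of Ift43 was 0.42 (edgeR adjusted p 0.00449), so this gene was called there.

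Of the 7 BBSome genes, 4 rose, 1 fell and 2 were not called, with a median log2 fold change of 0.25. Ttc8 (chr12:98920537-98983250), the gene of subunit BBS8, stood at 8.02, 6.84 and 8.81 CPM across R783H A to C and at 4.06, 4.73 and 5.58 CPM across WT A to C. Every R783H library was higher than every WT library, and Ttc8 rose 1.65-fold, by a log2 fold change of 0.72 (SE 0.14, edgeR adjusted p 7.53e-04). Bbs1, the subunit that contacts Arl6, averaged 11.4 ± 0.482 CPM over the R783H libraries and 8.23 ± 0.253 CPM over the WT libraries (SD, n = 3), with a log2 fold change of 0.46 (SE 0.08, edgeR adjusted p 4.46e-04). Bbs9, a subunit of the core, averaged 20.6 ± 0.224 CPM over the R783H libraries and 14.97 ± 0.493 CPM over the WT libraries (SD, n = 3), and its log2 fold change was 0.46 (SE 0.06, edgeR adjusted p 8.35e-05). Bbs4 rose by a log2 fold change of 0.25 (SE 0.08, edgeR adjusted p 0.0178). This call was lost without R783H A, WT B or WT C (edgeR adjusted p 0.0543, 0.05498 and 0.0835), with DESeq2 and with the offset.

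Bbs2, another core subunit, moved against the other called BBSome genes. Bbs2 was found at 13.3, 12.5 and 13.2 CPM across R783H A to C and at 18.4, 19.4 and 17.8 CPM across WT A to C, and it fell 1.42-fold, with a log2 fold change of -0.51 (SE 0.07, edgeR adjusted p 7.50e-05). Bbs5, a subunit that binds phosphoinositides, was the most abundant BBSome gene per kilobase in R783H (6.12 CPM per kb), while in WT Bbs2 was higher (6.04 against 5.53 CPM per kb). Bbs5 stood at 9.55, 8.105 and 9.32 CPM across R783H A to C and at 8.22, 8.44 and 7.69 CPM across WT A to C. The groups overlapped in R783H B, and the log2 fold change was 0.15 (SE 0.10, edgeR adjusted p 0.198). Bbs7 had a log2 fold change of 0.02 (SE 0.12, edgeR adjusted p 0.8996). The 3 genes of the chaperonin-like complex that assembles the BBSome held 1 that fell and none that rose. Mkks (chr2:136873780-136891406), the most abundant of them, was at 33.4, 31.3 and 34.4 CPM across R783H A to C and at 40.4, 40.2 and 40.4 CPM across WT A to C. All R783H libraries lay below all WT libraries, and the log2 fold change was -0.29 (SE 0.06, edgeR adjusted p 8.21e-04). Of the exon sequence of Mkks, 29.3% is shared with a transcript annotated on the same strand, so its count is uncertain. Bbs10 and Bbs12 were not called, at log2 fold changes of 0.24 and 0.13. Without WT C the value of Bbs10 was 0.34 (edgeR adjusted p 0.0452).

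Of the kinesin-2 genes, 1 rose and 2 were not called. Kif17 (chr4:138262251-138301973), the homodimeric kinesin-2 that works beside the main motor in some cilia, was the scarcest of the 46 genes, with 44, 42, 27 counts across R783H A to C and 15, 14, 10 across WT A to C. In CPM it stood at 1.46, 1.48 and 0.912 CPM across R783H A to C and at 0.743, 0.571 and 0.469 CPM across WT A to C. The lowest R783H library was above the highest WT library, and Kif17 rose 2.16-fold, by a log2 fold change of 1.11 (SE 0.29, edgeR adjusted p 0.00529). Kif3a (chr11:53565701-53604248), a motor subunit of heterotrimeric kinesin-2 and the most abundant of the 3 per kilobase, was at 28.8, 27.03 and 29.7 CPM across R783H A to C and at 28.6, 29.6 and 29.3 CPM across WT A to C. The ranges overlapped, with a log2 fold change of -0.03 (SE 0.06, edgeR adjusted p 0.626). Its partner Kif3b had a log2 fold change of 0.13 (SE 0.06, edgeR adjusted p 0.0594). Without R783H B or WT C the Kif3b value was 0.13 or 0.17, at edgeR adjusted p values of 0.0349 and 0.0292, and with the offset it turned to -0.05. Kif3a has a stretch nearly identical to other genes.

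The 3 Arf-like GTPases did not move together. Arl6 (chr16:59612949-59639409), which recruits the BBSome to the membrane, stood at 16.4, 15.6 and 16.6 CPM across R783H A to C and at 23.6, 24.1 and 25.3 CPM across WT A to C. No R783H library reached the WT range, and Arl6 fell 1.502-fold, with a log2 fold change of -0.59 (SE 0.06, edgeR adjusted p 1.29e-05), the largest decrease of the 46 genes. Arl13b, a GTPase of the ciliary membrane that activates Arl3, stood at 26.8, 22.1 and 25.96 CPM across R783H A to C and at 20.5, 17.9 and 20.2 CPM across WT A to C. It rose by a log2 fold change of 0.35 (SE 0.09, edgeR adjusted p 0.00379), with every R783H library above every WT library. Arl3 (chr19:46531109-46573182), which releases lipid-modified proteins inside the cilium, stood at 38.96, 40.9 and 38.7 CPM across R783H A to C and at 37.03, 37.8 and 37.4 CPM across WT A to C. Its R783H libraries were all above its WT libraries, yet the log2 fold change of 0.08 (SE 0.05, edgeR adjusted p 0.205) was not called. With the length and GC offset Arl3 was at 0.21 (edgeR adjusted p 8.52e-04).

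**Figure D2:**
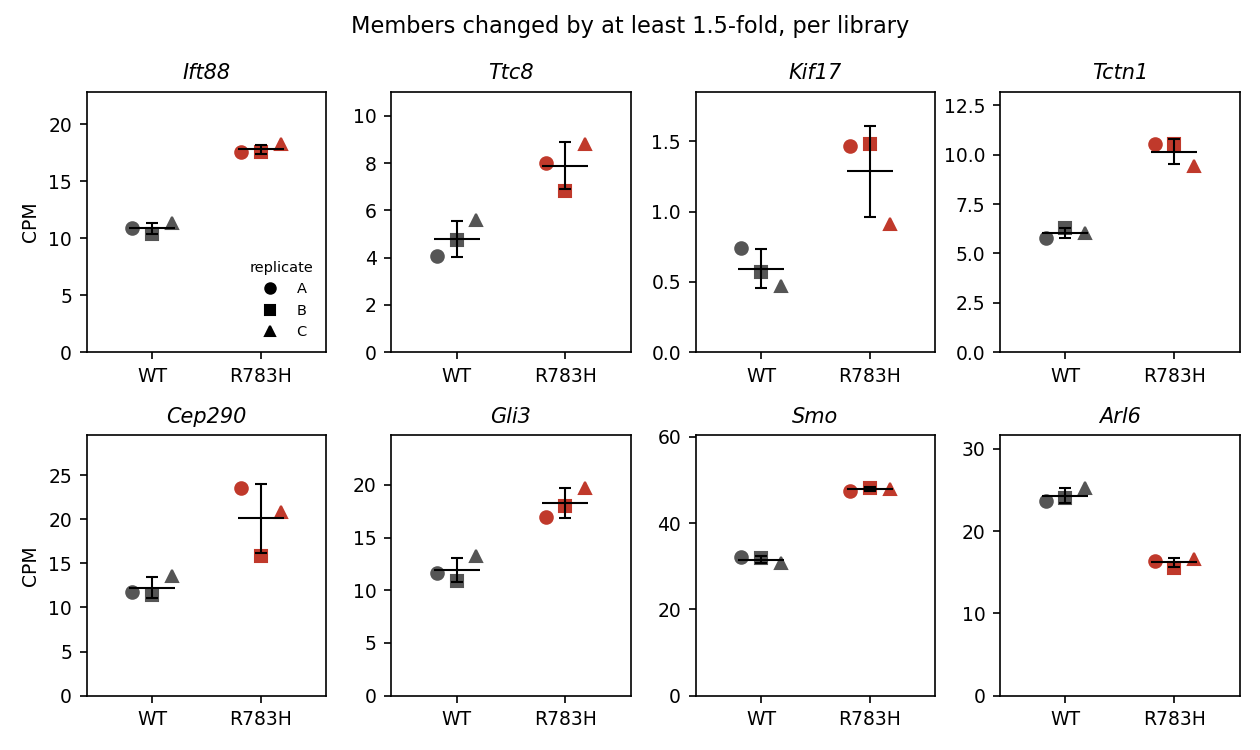
CPM in each library for the 8 genes called with a change of at least 1.5-fold, with WT in grey and R783H in red, symbols for the replicate letter, and lines and bars for the mean ± SD (n = 3). Each panel starts at 0 and has its own scale. In 7 panels all R783H libraries lie above all WT libraries, and for Arl6 all lie below.

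Of the 10 transition zone genes, 5 rose, 2 fell and 3 were not called, with a median log2 fold change of 0.15. Tctn1 (chr5:122239495-122264489), a tectonic protein of the gate, stood at 10.5, 10.5 and 9.42 CPM across R783H A to C and at 5.79, 6.28 and 6.05 CPM across WT A to C. The groups did not overlap and Tctn1 rose 1.68-fold, by a log2 fold change of 0.75 (SE 0.09, edgeR adjusted p 3.45e-05). Its exons share 19% of their sequence with Hvcn1 on the opposite strand, so part of this count is uncertain where strand was not used. Cep290 (chr10:100487548-100575671), which bridges membrane and microtubules at the base, stood at 23.6, 15.8 and 20.8 CPM across R783H A to C and at 11.7, 11.4 and 13.6 CPM across WT A to C. R783H B was the lowest R783H library but still above all WT libraries, and the log2 fold change was 0.72 (SE 0.13, edgeR adjusted p 6.76e-04). With the length and GC offset the Cep290 value was 0.39 (edgeR adjusted p 8.40e-04).

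Tmem67, also called meckelin, a membrane protein of the gate, averaged 7.95 ± 0.442 CPM over the R783H libraries and 6.08 ± 0.425 CPM over the WT libraries (SD, n = 3), with a log2 fold change of 0.39 (SE 0.10, edgeR adjusted p 0.00502). It has a stretch nearly identical to Rbm12b1. Tctn2, whose promoter stretch holds the longer motif, rose by a log2 fold change of 0.19 (SE 0.07, edgeR adjusted p 0.0393). The Tctn2 call was lost without R783H A, R783H B, WT A or WT C (edgeR adjusted p 0.126, 0.1097, 0.0584 and 0.172), and also with DESeq2, RLE factors and equal depth. Cc2d2a, a scaffold of the gate, had a log2 fold change of 0.19 (SE 0.07, edgeR adjusted p 0.0363), with overlap between the groups. That call was lost without R783H A, R783H C, WT B or WT C (edgeR adjusted p 0.126, 0.136, 0.1297 and 0.117), also with DESeq2 and RLE factors, and with the offset, where the value was 0.02.

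Rpgrip1l, a scaffold at the base of the gate, fell: it stood at 12.6, 8.95 and 12.5 CPM across R783H A to C and at 14.6, 15.1 and 15.9 CPM across WT A to C. R783H B was the lowest library, all R783H libraries were below all WT libraries, and the log2 fold change was -0.42 (SE 0.12, edgeR adjusted p 0.00924). The offset moved Rpgrip1l to -0.69. B9d2 also fell, with a log2 fold change of -0.33 (SE 0.13, edgeR adjusted p 0.0427), but at 4.16, 5.25 and 4.39 CPM across R783H A to C and at 5.198, 6.402 and 5.62 CPM across WT A to C its groups overlapped. The B9d2 call was lost without R783H A, R783H C, WT B or WT C (edgeR adjusted p 0.125, 0.09904, 0.189 and 0.0698). It was also lost with DESeq2, library size alone, equal depth and the offset, which gave -0.12. B9d1 (chr11:61505144-61512931), a partner of B9d2 and the most abundant of the 46 genes per kilobase, stood at 36.7, 40.4 and 33.7 CPM across R783H A to C and at 35.6, 38.001 and 34.6 CPM across WT A to C. Its groups overlapped, with a log2 fold change of 0.03 (SE 0.07, edgeR adjusted p 0.705), and the offset gave 0.22 (edgeR adjusted p 0.00374). Mks1 and Tctn3 were not called, at log2 fold changes of 0.09 and 0.10, and with the offset Mks1 was at 0.15 (edgeR adjusted p 0.0122). Ofd1 (chrX:166386573-166440704), a protein of centrioles and centriolar satellites, was at 42.8, 38.97 and 46.9 CPM across R783H A to C and at 40.002, 43.3 and 42.9 CPM across WT A to C. The 2 groups covered much the same range, and the log2 fold change was 0.03 (SE 0.07, edgeR adjusted p 0.753).

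Of the 5 Hedgehog genes of the list, 2 rose, 1 fell and 2 were not called. Smo (chr6:29735497-29761366), the membrane protein that passes the signal on inside the cilium, stood at 47.5, 48.2 and 47.9 CPM across R783H A to C and at 32.1, 31.8 and 30.7 CPM across WT A to C. The spread within each group was small beside the difference, and Smo rose 1.52-fold, by a log2 fold change of 0.60 (SE 0.05, edgeR adjusted p 1.85e-06). Gli3 (chr13:15463723-15730026), the factor that is mostly cut to a repressor, stood at 16.9, 18.04 and 19.7 CPM across R783H A to C and at 11.6, 10.9 and 13.2 CPM across WT A to C. Every R783H library exceeded every WT library, with a log2 fold change of 0.62 (SE 0.09, edgeR adjusted p 1.21e-04), which the offset brought to 0.32 (edgeR adjusted p 0.00331). Gli2 (chr1:118834061-119054405), the main activator, was at 108, 115 and 116 CPM across R783H A to C and at 105, 109.8 and 106 CPM across WT A to C. Its groups overlapped, at a log2 fold change of 0.07 (SE 0.05, edgeR adjusted p 0.182), and with the offset the sign of Gli2 turned, to -0.10 (edgeR adjusted p 0.0452).

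Kif7, a kinesin that organises the ciliary tip, averaged 23.4 ± 0.152 CPM over the R783H libraries and 27.7 ± 1.24 CPM over the WT libraries (SD, n = 3) and fell, with a log2 fold change of -0.24 (SE 0.06, edgeR adjusted p 0.00442). It shares 19.1% of its exon sequence with a gene on the opposite strand. Sufu, which restrains the Gli factors, had a log2 fold change of -0.07 (SE 0.07, edgeR adjusted p 0.3999). With the offset the value of Sufu was -0.15 (edgeR adjusted p 0.0441), and without R783H B it was -0.18 (edgeR adjusted p 0.0143).

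Fold changes of all genes moved with transcript length, and so did those of the cilium genes. The Spearman correlation between the log2 fold change and the length of the longest transcript was 0.392 over the 46 genes and 0.243 over 13763 genes with a length. These points share the same 6 libraries, and the correlations are descriptions. Among the 16 shortest cilium genes, 838 to 2743 nt, 1 rose and 3 fell, against 22.9% and 41.1% of all genes within these lengths. The next 15 genes, up to 4226 nt, held 9 that rose and 2 that fell, against 31.2% and 33% of all genes in that range. Likewise 9 rose and 2 fell among the 15 longest, up to 8211 nt, against 46.5% and 20.7% of all genes in that range. Genes under 838 nt or over 8211 nt are outside these shares. The median length was 3426.5 nt for the cilium genes and 3254 nt for all. When length and GC content were fitted as an offset, 20 cilium genes rose and 8 fell, against 32.2% and 35.2% of all genes in that fit. Of the 19 that rose without the offset, 16 were still called higher. With the offset the median was 0.15 over the 46 genes and -0.01 over all genes. The division by length was chosen after the data had been seen, and the part of length in these results was not tested beyond this offset.

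**Figure D3:**
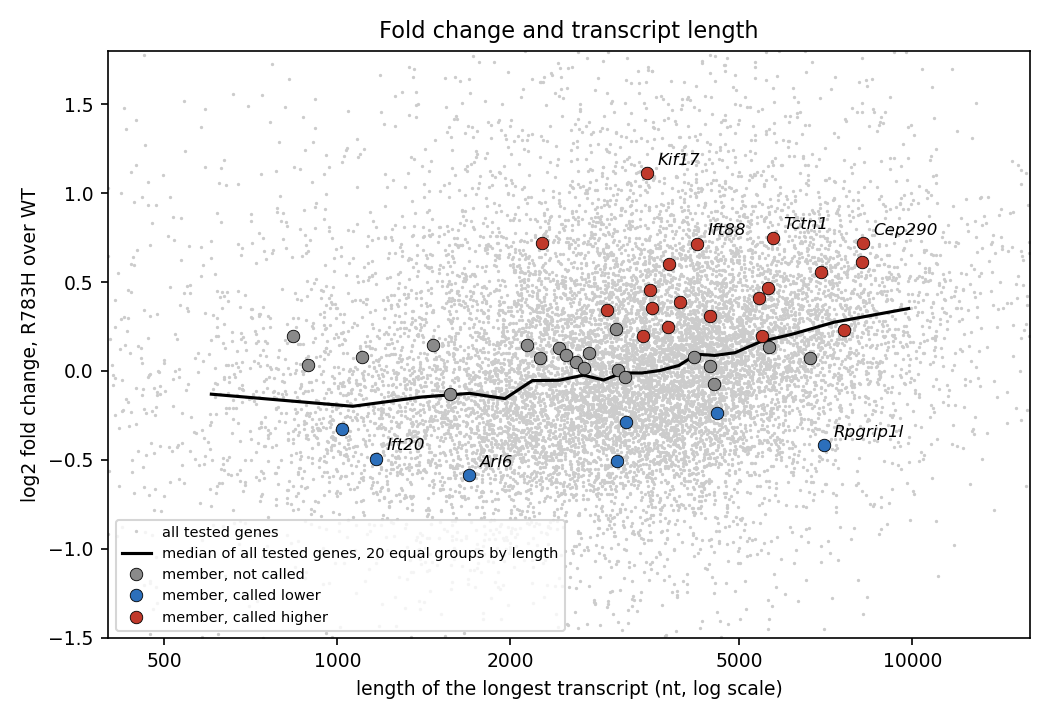
Log2 fold change of R783H over WT against the length of the longest transcript (log axis) for the 46 cilium genes (large points, coloured by call) over all tested genes with a length (small grey points), with a black line for the median of all genes in 20 equal groups by length. A total of 461 genes lie outside the axes. Longer genes tend to lie higher, in the cilium genes as in the grey cloud.

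R783H B departed from its group in a way that followed base composition. It was the lowest R783H library for 21 of the 46 genes and the highest for another 21. The log2 CPM of R783H B minus the mean of R783H A and C had a Spearman correlation of 0.696 with the GC content of the longest transcript over the 46 genes, and of 0.444 over 13763 genes. Its median was -0.21 in the 16 genes under 45% GC and 0.07 in the other 30, a division chosen after seeing the data. The extremes were Rpgrip1l at -0.49 and Kif17 at 0.36. The Kif17 value rests on few counts, with R783H B (1.48 CPM) close to R783H A (1.46 CPM) and R783H C lower (0.912 CPM). Without R783H B, 20 of the 46 genes were called higher and 9 lower, against 34.7% and 34.3% of all genes in that fit.

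**Figure D4:**
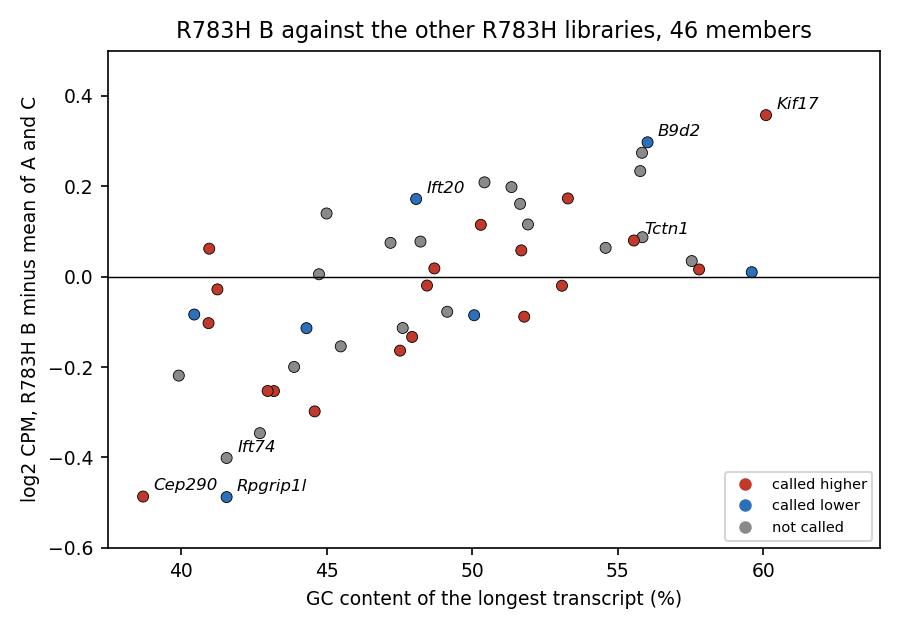
Log2 CPM in R783H B minus the mean of R783H A and C against the GC content of the longest transcript, for the 46 cilium genes, coloured by their call. Points at low GC lie mostly below 0 and points at high GC mostly above, from Rpgrip1l at -0.49 to Kif17 at 0.36. Kif17 had few counts, 44, 42 and 27 across R783H A to C, so its point reflects a low R783H C.

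Other genes of the cilium were counted from lists that hold none of the 46. Over all 7 lists, 111 of 126 genes were tested, 43 rose and 31 fell, with a median log2 fold change of 0.05, against 33.5% higher and 30.9% lower over all tested genes. Of the other IFT and dynein-2 genes, 10 of 19 rose and 3 fell, with a median of 0.21. Dync2h1, the motor chain of dynein-2, averaged 18.6 ± 2.58 CPM over the R783H libraries and 9.87 ± 0.707 CPM over the WT libraries (SD, n = 3) and rose by a log2 fold change of 0.91 (SE 0.11, edgeR adjusted p 2.22e-05), which the offset brought to 0.42. Wdr19, the IFT-A subunit IFT144, averaged 31.1 ± 1.67 CPM over the R783H libraries and 17.1 ± 1.43 CPM over the WT libraries (SD, n = 3), with a log2 fold change of 0.87 (SE 0.07, edgeR adjusted p 2.16e-06). Hspb11, the IFT-B subunit IFT25, rose by a log2 fold change of 0.55 (SE 0.20, edgeR adjusted p 0.03005), with overlap between the groups. This call was lost with DESeq2, and with a single library left out the edgeR adjusted p reached 0.115.

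Of the other 17 transition zone genes, 6 rose (35.3%) and 5 fell (29.4%), near the 33.5% and 30.9% of all tested genes. The median log2 fold change was 0.17. Cspp1 and Iqcb1, genes of Joubert and Senior-Loken syndromes, rose by log2 fold changes of 0.76 (SE 0.07, edgeR adjusted p 4.09e-06) and 0.75 (SE 0.07, edgeR adjusted p 2.82e-06), and Tmem216, a membrane protein of the gate, fell, with a log2 fold change of -0.67 (SE 0.09, edgeR adjusted p 6.63e-05). Among 24 genes linked in any role to the basal body and the start of cilium growth, 14 rose (58.3%) and 6 fell (25%). Of all tested genes 33.5% rose and 30.9% fell, and the median of the 24 was 0.24. With the offset these counts were 11 and 9, with a median of 0.09, against 32.2% and 35.2% of all genes in that fit. Wdpcp and Cplane1, planar polarity effectors of cilium growth, rose by log2 fold changes of 0.73 (SE 0.20, edgeR adjusted p 0.00797) and 0.68 (SE 0.06, edgeR adjusted p 4.68e-06), and Ttbk2, the kinase that starts it, by 0.65 (SE 0.08, edgeR adjusted p 4.28e-05). The offset brought Cplane1 to 0.30 and Ttbk2 to 0.24.

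Of 12 genes that act in cilium disassembly, 6 fell, 1 rose and 5 were not called, where 30.9% of all tested genes fell, and the median log2 fold change was -0.44. Aurka, a mitotic kinase that also starts cilium resorption, averaged 107 ± 6.03 CPM over the R783H libraries and 235 ± 10.2 CPM over the WT libraries (SD, n = 3), and its log2 fold change was -1.13 (SE 0.05, edgeR adjusted p 5.58e-08). Plk1 averaged 137 ± 11.04 CPM over the R783H libraries and 250.3 ± 7.59 CPM over the WT libraries (SD, n = 3), with a log2 fold change of -0.87 (SE 0.06, edgeR adjusted p 3.81e-07), and Nek2 averaged 115 ± 0.423 CPM over the R783H libraries and 185 ± 3.94 CPM over the WT libraries (SD, n = 3), with a log2 fold change of -0.68 (SE 0.04, edgeR adjusted p 2.05e-07). All 3 are kinases of mitosis, and no value here separates that role from the ciliary one.

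Of 20 other Hedgehog genes tested, 6 rose (30%) and 6 fell (30%), against 33.5% and 30.9% of all tested genes. Both shares lay near the background, and the median log2 fold change was -0.11. Gli1, a direct target of the pathway, averaged 7.29 ± 0.948 CPM over the R783H libraries and 16.1 ± 0.0997 CPM over the WT libraries (SD, n = 3) and fell, with a log2 fold change of -1.14 (SE 0.10, edgeR adjusted p 1.90e-06). Boc and Cdon, co-receptors for the ligand, rose by log2 fold changes of 0.85 (SE 0.12, edgeR adjusted p 7.84e-05) and 0.81 (SE 0.08, edgeR adjusted p 3.58e-06). Ptch1, the receptor and another target, was named after its values were seen: it rose by a log2 fold change of 0.53 (SE 0.06, edgeR adjusted p 1.31e-05), and with the offset its value was 0.15 (edgeR adjusted p 0.0208). Of 11 transcription factors of the RFX family or linked to cilia, 7 were tested. Of these, 4 rose (57.1%) and 2 fell (28.6%), against 33.5% and 30.9% of all tested genes. Rfx3 averaged 7.43 ± 0.996 CPM over the R783H libraries and 3.39 ± 0.6401 CPM over the WT libraries (SD, n = 3) and rose by a log2 fold change of 1.14 (SE 0.15, edgeR adjusted p 5.72e-05), while the log2 fold changes were 0.39 (SE 0.08, edgeR adjusted p 0.00163) for Rfx5, which rose, and -0.48 (SE 0.05, edgeR adjusted p 1.76e-05) for Rfx1, which fell. Foxj1, named after its values were seen, had a log2 fold change of -0.90, with a DESeq2 adjusted p of 0.0102. Mcidas, a regulator of multiciliated cells, had no count in any library.

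**Figure D5:**
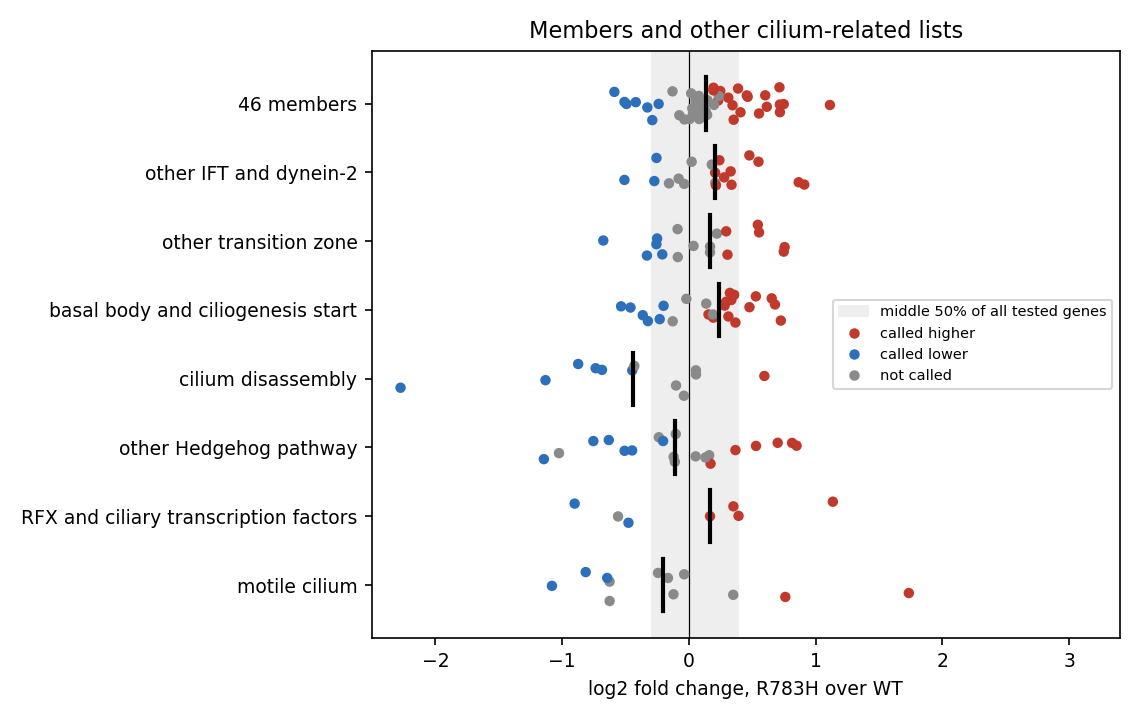
Log2 fold change of R783H over WT for the 46 cilium genes and the tested genes of 7 other cilium-related lists, with a black bar at each median and a grey band for the middle 50% of all tested genes (-0.29 to 0.39). The medians run from -0.44 for cilium disassembly to 0.24 for basal body and start of growth. The lowest point is Pifo, a gene with few counts that was named after its values were seen.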

How the data were processed

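The authors deposited 1 table of raw read counts per gene for 6 libraries, all whole numbers with unequal library totals. Per the submitters' processing notes, CASAVA 1.4, HISAT2 and SAMtools were used with build mm10. How reads were counted, against which annotation and with which strand setting is not given in the sources used here. Of 27179 Entrez identifiers, 6989 had no count, 25275 matched a symbol in a RefSeq table (GRCm38.p6), and 0 columns were left unassigned.

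The counts were analysed with R 4.3.3 and edgeR 4.0.16 (filterByExpr at its defaults, min.count 10 and min.total.count 15, TMM, quasi-likelihood test, Benjamini-Hochberg over 14199 genes, group as the only term). SE is the size of the log2 fold change divided by the square root of F. DESeq2 1.42.0, limma 3.58.1 (voom), other scalings and filters, equal depth, a replicate block, an offset for length and GC content (longest GENCODE M21 transcript, GRCm38) and leaving out each library were alternatives. The steps were tested on simulated data. Per library, filtering dropped 0.0461% to 0.0558% of counts. The reads carry no molecular identifiers, so they need not be independent molecules, and the floor of 3 counts covers counting error only. Shared exons were read from the annotation, and near-identical stretches were searched with BLAST 2.17.0. Replicates of a group differed by a chi-square per degree of freedom of 1.95 to 11.6, beyond sampling noise.

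The 46 genes and the other lists came from general knowledge of cilia, but they were chosen with earlier results of these data known. Values in all libraries are given for Trim71, for called genes of the 46 with a change of at least 1.5-fold, and for the most abundant gene per kilobase of each role over both groups. For each other list, up to 3 called genes with the largest change and at least 50 mean counts in the higher group are named. Library values of other genes of the 46 were added after they were seen.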

Additional observations from a re-analysis of the deposited data

How the results depend on the processing

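Over 17 alternatives, 14 of the 19 genes that rose and 6 of the 7 that fell kept their call and direction. Ift80, Ift81, Bbs4, Tctn2, Cc2d2a and B9d2 lost the call in at least 1, and all of the called genes but Ift80 kept their direction. Between 15 (DESeq2, and without R783H A) and 27 (library size alone) of the 46 genes were called higher, and between 6 and 9 lower (9 without R783H B). Leaving out 1 library each gave 15 to 20 higher, 6 to 9 lower and a median of 0.11 to 0.15. With library size alone the median of the 46 genes was 0.22 and that of all genes 0.11. Over all genes, 4129 to 5673 were called higher and 3603 to 4913 lower. Deviations of same-lettered libraries from their group means correlated at -0.07, 0.00682 and 0.09, and not every library correlated best with its own letter. With 3 libraries a group, such values cannot settle whether the letters pair the samples. The replicate block left 19 higher and 7 lower, with 4839 and 4421 over all genes and a median of 0.13. Block and offset together gave 20 and 8, with 4408 and 4809 over all genes.

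Some signs turned, and the cause was not tested. With the length and GC offset, and with block and offset, Trim71 was at -0.28 and -0.28, Ift27 at 0.0191 and 0.0223, Ift80 at -0.0635 and -0.0603, Kif3b at -0.045 and -0.045, Ofd1 at -0.0865 and -0.0866, and Gli2 at -0.0961 and -0.0958. With RLE factors, DESeq2 and equal depth, Ift22 was at -0.0146, -0.0141 and -0.00985, and Bbs7 at -0.0031, -0.00299 and -0.0523. With library size alone Kif3a was at 0.0466 and Sufu at 0.00627. Leaving out 1 library each gave Trim71 -0.0219 to 0.13, Ift22 -0.0704 to 0.0648, Ift46 -0.0138 to 0.13, Ift57 -0.0277 to 0.0794, Bbs7 -0.0303 to 0.0432, Bbs12 -0.00252 to 0.24, B9d1 -0.0584 to 0.0852 and Ofd1 -0.0524 to 0.067. Over the 46 genes, 691 values kept their sign and their side of the threshold, 35 lost and 26 gained the call, and 30 turned sign. Depth limits genes such as Kif17, since 3 counts are 0.103 to 0.144 CPM.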

Other observations

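Genes of motile cilia, which beat and which stem cells lack, were also counted. Of 20 such genes 12 were tested, with a median log2 fold change of -0.20. Of the tested genes of this list, 2 rose (16.7%) and 3 fell (25%), against 33.5% and 30.9% of all tested genes. Both shares lay under that background, but these genes had few counts, which makes a call less likely. Only 7 had at least 10 counts in every library, and the part of low counts was not tested. The summed level of the motile cilium genes was 37.0 to 37.6 CPM in R783H and 36.9 to 40.2 CPM in WT. Ccdc40 and Ccdc151, which serve the assembly of the beating axoneme, fell, with log2 fold changes of -1.08 (SE 0.19, edgeR adjusted p 3.82e-04) and -0.81 (SE 0.16, edgeR adjusted p 8.73e-04), and Tekt1, a protein of microtubule doublets, rose by a log2 fold change of 0.76 (SE 0.09, edgeR adjusted p 2.06e-05).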
